A study of Mus musculus with 6 samples.

Results

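A set of 10 chemokine ligand genes was followed in activated T helper cells: Ccl1, Ccl3, Ccl4, Ccl5, Ccl9, Ccl17, Ccl20, Ccl22, Xcl1 and Cxcl10. They were taken by symbol from the 18046 genes listed in each library, and all 10 were listed. RNA had been sequenced from naive CD4+ T cells of C57BL/6 mouse spleen, with an age of 3 weeks in the labels. The cells had been activated through CD3 and CD28 in culture for 3 days in a Th1-polarizing setting, either with LPC at 20 µM (n = 3 libraries) or with vehicle (n = 3). The labels spell out neither LPC nor the vehicle. They also do not tie the libraries to individual mice or cultures, and p-values therefore reflect spread among these libraries that may be technical. All values are from cultured cells, and the comparison asks how the level of each chemokine transcript differed with LPC.

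Chemokines are small secreted proteins that guide leukocytes through G protein-coupled receptors, and their subfamilies (CC, CXC and XC) are named for the spacing of conserved cysteines near the amino terminus. Activated Th1 cells are known for the inflammatory ligands Ccl3, Ccl4 and Ccl5, which draw monocytes and further T cells to a site. Ccl17 and Ccl22 bind Ccr4 and are best known from dendritic cells, while Cxcl10 is induced by interferons and binds Cxcr3.

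The genes lie in a few places of the genome (GRCm38.p6, RefSeq). Chromosome 11 holds 5 of them, Ccl1 at chr11:82176666-82179812, Ccl5 at chr11:83525778-83530518, Ccl9 at chr11:83572917-83578636, Ccl3 at chr11:83647843-83649378 and Ccl4 at chr11:83648624-83664683. Ccl22 (chr8:94745684-94751388) and Ccl17 (chr8:94809380-94812038) lie near each other on chromosome 8, and Ccl20, Xcl1 and Cxcl10 lie at chr1:83116766-83119167, chr1:164931644-164935522 and chr5:92346638-92348889. The RefSeq spans of Ccl3 and Ccl4 share 755 bases, and the deposited files list a predicted transcript of Ccl4 beside its curated one. Whether the counting used strand is not given in the sources used here, so reads from that stretch cannot be assigned with certainty to either gene.

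Promoter sequences from RefSeq (GRCm38.p6; 250 bases before to 50 after the gene start) were at hand for 8 of the 10 genes. Those of Ccl3 and Ccl22 are shown because these genes changed with LPC, and that of Cxcl10 because it held the most motif matches of the 8. Capitals mark matches on either strand to GGGNNNTTC (kappaB, its first letters), TGANTCA (AP-1), GGAAA (the NFAT core), GAAANNGAA (the start of ISRE, an interferon response element) or TTCNNNGAA (GAS, a STAT site).
Ccl3, chr11:83649329-83649628, minus strand: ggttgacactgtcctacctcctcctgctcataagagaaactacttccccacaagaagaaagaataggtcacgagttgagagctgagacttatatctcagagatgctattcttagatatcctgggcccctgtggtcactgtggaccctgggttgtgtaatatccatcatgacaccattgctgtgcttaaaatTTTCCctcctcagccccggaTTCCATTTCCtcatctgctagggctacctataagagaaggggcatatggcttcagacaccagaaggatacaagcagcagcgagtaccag
Ccl22, chr8:94745434-94745733, plus strand: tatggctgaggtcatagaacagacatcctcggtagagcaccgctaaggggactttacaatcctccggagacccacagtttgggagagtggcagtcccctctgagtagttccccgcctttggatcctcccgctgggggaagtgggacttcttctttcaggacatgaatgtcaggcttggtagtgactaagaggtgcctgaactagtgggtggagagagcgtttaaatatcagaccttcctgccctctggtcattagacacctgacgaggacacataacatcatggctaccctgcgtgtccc
Cxcl10, chr5:92348840-92349139, minus strand: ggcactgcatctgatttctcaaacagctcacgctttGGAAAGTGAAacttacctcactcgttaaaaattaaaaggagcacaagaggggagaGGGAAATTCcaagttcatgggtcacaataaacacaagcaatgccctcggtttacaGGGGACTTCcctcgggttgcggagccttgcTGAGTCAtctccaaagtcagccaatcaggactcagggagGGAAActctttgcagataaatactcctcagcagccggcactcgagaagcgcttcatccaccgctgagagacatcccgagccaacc

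The Ccl3 window held 3 matches, 2 to the NFAT core, whose first bases lie at positions -59 and -34 from the gene start, and 1 to the ISRE letters, which overlaps an NFAT core. The Ccl22 window held 0 matches to the motifs searched. The Cxcl10 window held 7 matches, 2 kappaB, 1 AP-1, 3 NFAT core and 1 ISRE, of which 2 pairs overlap (an NFAT core with the ISRE and an NFAT core with a kappaB match). Of 32851 promoters of this length, 61.3% held the NFAT core, 14.0% kappaB, 7.81% AP-1, 8.56% ISRE and 8.30% GAS. A match describes these letters and is not a measured binding site, and a window without one says nothing of the factor.

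Most of the chemokine signal came from Ccl4, Ccl5 and Ccl3, which together made up 93.7%, 90.0% and 93.4% of the summed FPKM of the 10 genes in LPC replicates 1 to 3, and 91.5%, 90.8% and 95.6% in vehicle replicates 1 to 3. FPKM scales fragments for transcript length and for the library's mapped reads, so levels of different genes can be set side by side. The summed level was 379.8, 376.8 and 463.0 FPKM in the LPC libraries, against 304.3, 283.6 and 351.0 FPKM in the vehicle libraries. The LPC libraries all lay above the vehicle libraries, as for 13.7% of tested genes taken singly, and the sum was not tested. Group means of Ccl3 and Ccl4 were 88.2 and 167 FPKM with LPC, against 47.7 and 125 FPKM with vehicle. The mean of Ccl5 was 120 FPKM with LPC and 118 FPKM with vehicle. In bulk RNA, fewer cells that express a gene and less RNA of it per cell cannot be told apart.

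**Figure D1:**
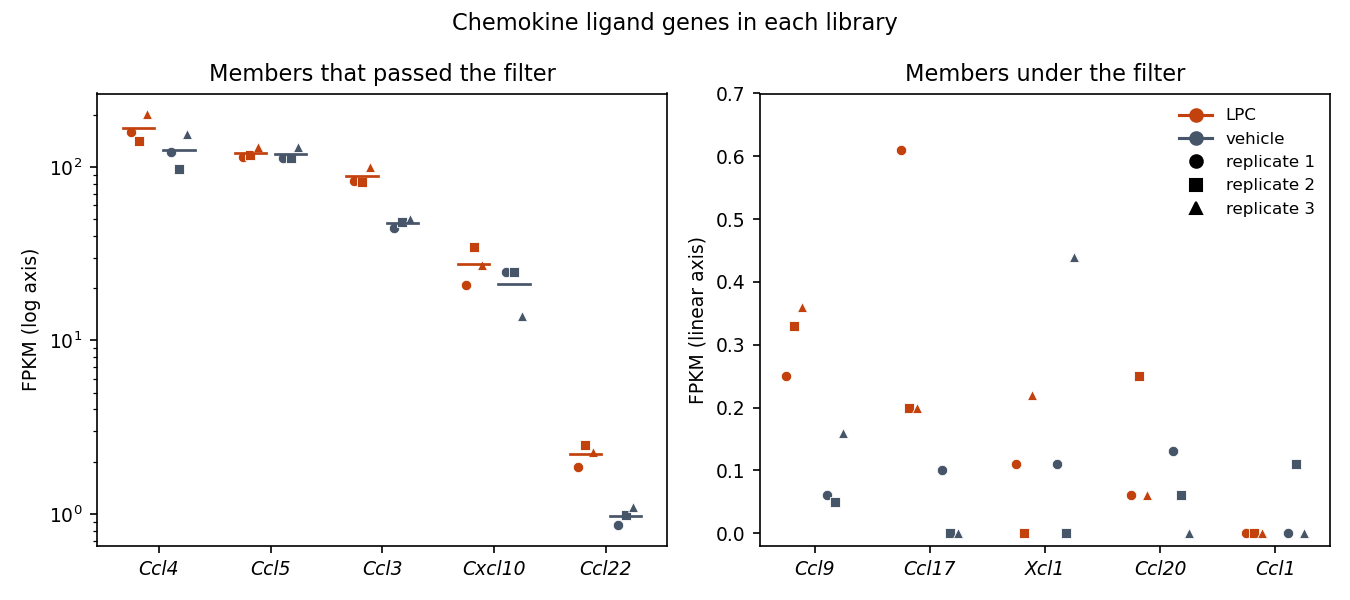
FPKM of the 10 chemokine ligand genes in each library, on a log axis for the 5 genes that passed the filter (bars are group means) and on a linear axis for the 5 under it (no means). LPC libraries lie left of vehicle libraries and symbols mark replicates; for Ccl3 and Ccl22 no LPC library overlaps a vehicle library, and all values of the right panel are at or under 0.61 FPKM.

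Genes were tested when at least 3 libraries reached 1 FPKM, which 10138 genes did. Of the 10 chemokine genes 5 passed this filter (Ccl3, Ccl4, Ccl5, Ccl22 and Cxcl10) and the other 5 stayed under 1 FPKM in every library. Ccl22 passed with 1 FPKM or more in the 3 LPC libraries and in 1 vehicle library, so the LPC libraries alone sufficed for it. By limma with Benjamini-Hochberg adjustment over all tested genes, 2 of the 5 rose with LPC, Ccl3 and Ccl22, and 0 fell. At an unadjusted limma p under 0.05, no member fell either, and Ccl4 was the 1 further member with a higher value (12.2% of tested genes were higher and 17.9% lower at that threshold). By adjusted p, 5.82% of all tested genes rose and 7.91% fell (13.7% in all), or 1392 genes. Single libraries moved that total: it was 702 when LPC replicate 1 was left out, 513 when vehicle replicate 1 was left out, and 566 when vehicle replicate 2 was left out. All LPC libraries lay above all vehicle libraries for 2 of the 5 members (13.7% of tested genes) and below them for 0 of the 5 (20.7% of tested genes, 34.5% counting either direction). The median log2 change (on log2 of FPKM + 1, LPC minus vehicle) was 0.43 for the 5 tested members and -0.04 for all tested genes.

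Ccl3, an inflammatory CC ligand that binds Ccr1, had the largest log2 change of FPKM + 1 among the tested members, while the ratio of group means was larger for Ccl22 (2.26, against 1.85 for Ccl3). Ccl3 was listed at 82.53, 81.54 and 100.52 FPKM in LPC replicates 1 to 3, against 44.43, 48.37 and 50.36 FPKM in vehicle replicates 1 to 3. Every LPC library was higher than every vehicle library. The group means were 88.2 ± 10.7 FPKM with LPC and 47.7 ± 3.02 FPKM with vehicle (SD, n = 3 each), a ratio of 1.85. The log2 change was 0.87 (SE 0.10, 95% interval 0.65 to 1.08, limma adjusted p = 0.000305), the 23rd highest of 10138. LPC replicate 3, which had the largest sum of FPKM over all genes (641026, against 556561 to 588274 in the others), also had the highest Ccl3. Without that library the log2 change of Ccl3 was 0.77 (limma adjusted p = 0.00018). With each library rescaled to a sum of 1000000, Ccl3 stood at 142, 145 and 157 with LPC, against 77.3, 86.9 and 85.6 with vehicle.

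Ccl4, the neighbour of Ccl3 and likewise an inflammatory CC ligand, had the highest mean level of the 10 genes. It was listed at 159.69, 140.72 and 202.02 FPKM with LPC, against 121.52, 97.14 and 155.46 FPKM with vehicle. The groups overlapped, since LPC replicate 2 lay below vehicle replicate 3. The means were 167 ± 31.4 and 125 ± 29.3 FPKM (SD, n = 3 each) for LPC and vehicle, and the log2 change of 0.43 (95% interval 0.10 to 0.77) did not pass (limma adjusted p = 0.0807). It passed without LPC replicate 2 (log2 change 0.55, limma adjusted p = 0.0489) and without vehicle replicate 3 (0.60, limma adjusted p = 0.0138), and with each library rescaled to a sum of 1000000 (0.38, limma adjusted p = 0.0489). It was 0.29 without LPC replicate 3 and 0.27 without vehicle replicate 2, and passed in neither (limma adjusted p = 0.207 and 0.307).

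Because Ccl3 and Ccl4 are neighbouring, similar genes, their ratio was taken within each library. Ccl3 reached 51.7%, 57.9% and 49.8% of the Ccl4 level in LPC replicates 1 to 3, against 36.6%, 49.8% and 32.4% in vehicle replicates 1 to 3. The groups overlapped by a small margin, since vehicle replicate 2 (log2 ratio -0.99) lay just above LPC replicate 3 (-1). The log2 ratio averaged -0.91 ± 0.11 with LPC and -1.34 ± 0.32 with vehicle (SD, n = 3 each), a difference of 0.44 that was not significant in a two-sided exact permutation test (p = 0.20, where 20 arrangements allow no p under 0.10). The shared stretch of the RefSeq spans may touch this ratio. Whether exons overlap there was not examined, and its part in the ratio was not tested.

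**Figure D2:**
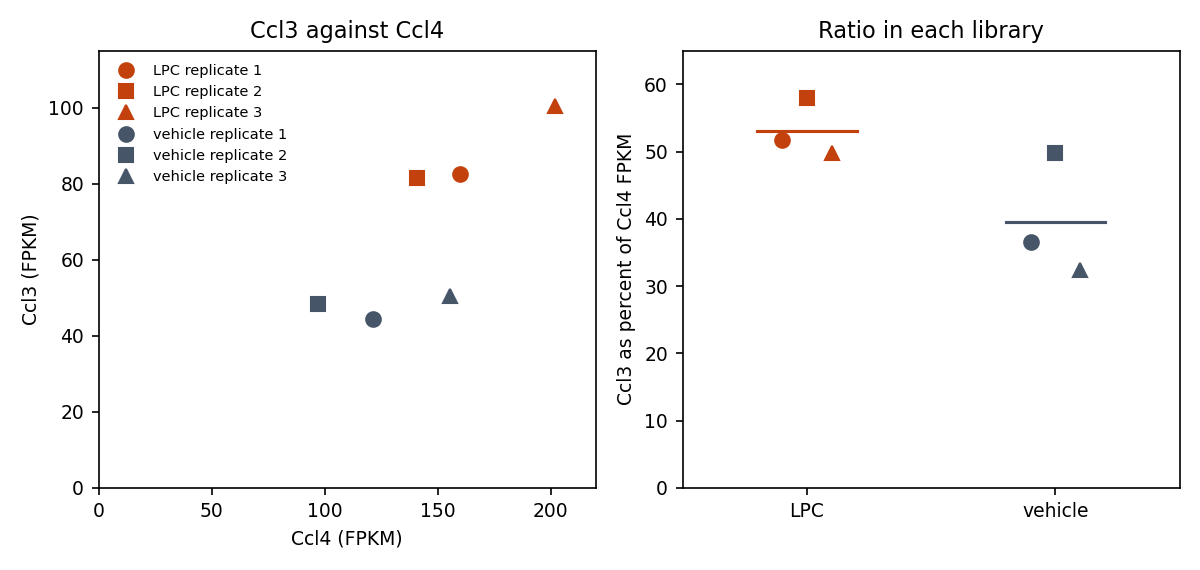
Left, Ccl3 against Ccl4 in FPKM for each of the 6 libraries; right, Ccl3 as a percent of Ccl4 in LPC and vehicle libraries, with group means as bars. The LPC libraries lie above the vehicle libraries in Ccl3, while the ratios of the groups overlap by a small margin near 49.8%.

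Ccl5, which binds Ccr1 and Ccr3, was listed at 113.68, 116.79 and 129.97 FPKM with LPC, against 112.42, 112.06 and 129.74 FPKM with vehicle. The libraries of the groups overlapped, and replicate 3 was the highest in each group. The means were 120 ± 8.65 FPKM with LPC and 118 ± 10.1 FPKM with vehicle (SD, n = 3 each). The log2 change of 0.03 did not pass (95% interval -0.18 to 0.23, limma adjusted p = 0.884).

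In order of level, Ccl4 lay above Ccl5 in the LPC libraries, with a lowest Ccl4 of 140.72 and a highest Ccl5 of 129.97 FPKM. In the vehicle libraries their ranges overlapped, at 97.14 to 155.46 FPKM for Ccl4 and 112.06 to 129.74 FPKM for Ccl5. Ccl3 came next and lay under Ccl5 in every library, followed by Cxcl10 and then Ccl22 in every library.

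Ccl22, a Ccr4 ligand, also rose with LPC but stayed at a low level. It was listed at 1.86, 2.49 and 2.26 FPKM with LPC, against 0.86, 0.98 and 1.09 FPKM with vehicle, and the groups did not overlap. By an estimated depth of 18.50 to 19.25 M reads per library, these values correspond to about 78, 105 and 93 reads with LPC, against about 37, 41 and 46 reads with vehicle. The means were 2.20 ± 0.319 FPKM with LPC and 0.977 ± 0.115 FPKM with vehicle (SD, n = 3 each), a ratio of 2.26. The log2 change was 0.69 (SE 0.11, 95% interval 0.47 to 0.92, limma adjusted p = 0.00171), and 1.09 with a pseudocount of 0.1 in place of 1, which shrinks low values less. The call was lost when all 18046 listed genes were tested (limma adjusted p = 0.0533).

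Ccl17, the other Ccr4 ligand, encoded near Ccl22, was listed at 0.61, 0.20 and 0.20 FPKM with LPC, against 0.10, 0 and 0 FPKM with vehicle. This corresponds to about 6, 2 and 2 reads with LPC, against about 1, 0 and 0 reads with vehicle. The groups did not overlap, but the values rest on single reads and LPC replicate 1 holds most of them. Ccl17 was under the filter; when all genes above 0 in some library were tested, an alternative chosen after seeing the data, it did not pass (log2 change 0.36, limma adjusted p = 0.138).

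Ccl9, a mouse CC chemokine that binds Ccr1, was listed at 0.25, 0.33 and 0.36 FPKM with LPC, against 0.06, 0.05 and 0.16 FPKM with vehicle. This is about 14, 19 and 20 reads with LPC, against about 3, 3 and 9 reads with vehicle, and the groups did not overlap. With all genes above 0 in some library tested, the alternative chosen after seeing the data, Ccl9 passed (log2 change 0.27, limma adjusted p = 0.0428), in a fit that called 2.75% of 16899 genes. It did not pass when all 18046 listed genes were tested (limma adjusted p = 0.0881), a fit that called 1.06% of them. Among genes under the filter with a value above 0 in some library, 5.03% had every LPC library above every vehicle library, as had 2 of the 5 members there, Ccl9 and Ccl17.

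Ccl17 and Ccl22 are best known from dendritic cells and Ccl9 from myeloid cells, so markers of other cells were read beside them. The 7 monocyte and macrophage markers summed to 0.42 to 0.51 FPKM with LPC and 0.11 to 0.25 FPKM with vehicle, and all 7 stayed under 1 FPKM in every library. Among them Lyz2, the myeloid lysozyme gene, was listed at 0.30, 0.20 and 0.15 FPKM with LPC, against 0.05, 0 and 0.05 FPKM with vehicle. Its groups did not overlap, like those of Ccl9, Ccl17 and Ccl22, but it did not pass with genes above 0 tested (limma adjusted p = 0.0513). Among the LPC libraries, Lyz2 and Ccl17 were highest in replicate 1, where Ccl9 and Ccl22 were lowest. Of 7 dendritic cell markers 6 were listed, summing to 20.1 to 27.6 FPKM with LPC and 16.5 to 17.7 FPKM with vehicle. Most of this was H2-Ab1, an MHC class II gene. H2-Ab1 was higher (23.2 ± 4.06 FPKM with LPC and 14.4 ± 0.68 FPKM with vehicle, SD, n = 3 each, log2 change 0.64, limma adjusted p = 0.00471), while Zbtb46, a transcription factor gene of classical dendritic cells, was lower (1.38 ± 0.185 FPKM with LPC and 2.82 ± 0.0839 FPKM with vehicle, log2 change -0.68, limma adjusted p = 0.00139). The other 4 dendritic cell markers (Itgax, Flt3, Clec9a and Siglech) were at or under 0.07 FPKM. The part of such cells in the values of Ccl9, Ccl17 and Ccl22 was not tested.

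Cxcl10, the interferon-induced CXC ligand, was listed at 21, 34.44 and 27.39 FPKM with LPC, against 24.65, 24.82 and 13.77 FPKM with vehicle. The groups overlapped, with LPC replicate 1 below vehicle replicates 1 and 2, and vehicle replicate 3 the lowest of all. The means were 27.6 ± 6.72 FPKM with LPC and 21.1 ± 6.33 FPKM with vehicle (SD, n = 3 each), and the log2 change of 0.39 did not pass (95% interval -0.03 to 0.82, limma adjusted p = 0.199). It was 0.13 without vehicle replicate 3 and 0.57 without LPC replicate 1, neither of which passed (limma adjusted p = 0.628 and 0.132). Cxcl9, a related gene whose product also binds Cxcr3, stayed at or under 0.13 FPKM in every library.

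Ccl1, Xcl1 and Ccl20 were at the edge of detection in every library, which goes against naming them as ligands made by these cells. That name has little backing for Ccl9 and Ccl17 either, which stayed at or under 0.36 and 0.61 FPKM. Ccl1, which binds Ccr8, was listed at 0 FPKM in all LPC libraries, and at 0, 0.11 and 0 FPKM in the vehicle libraries, about 1 read in all. Xcl1, the single-cysteine ligand of Xcr1, was listed at 0.11, 0 and 0.22 FPKM with LPC, against 0.11, 0 and 0.44 FPKM with vehicle. Ccl20, a Ccr6 ligand known from Th17 cells and epithelia, was listed at 0.06, 0.25 and 0.06 FPKM with LPC, against 0.13, 0.06 and 0 FPKM with vehicle. At about 0 to 4 reads per library, no difference between the groups was detectable at this depth for Ccl1, Xcl1 or Ccl20.

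**Figure D3:**
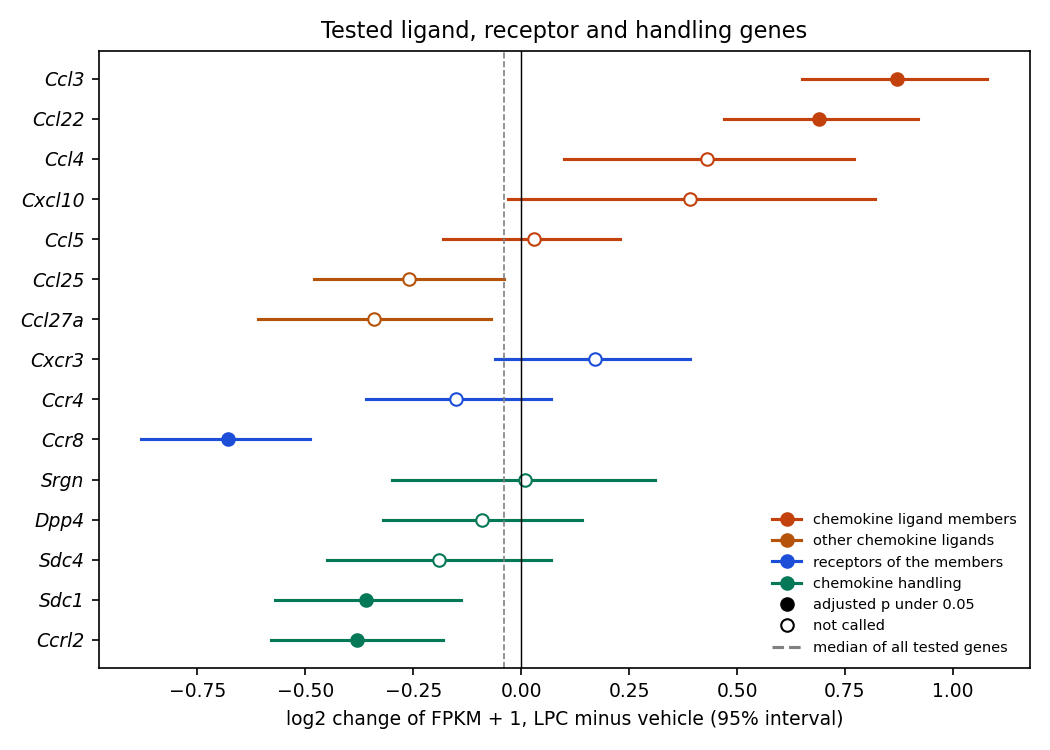
Log2 change of FPKM + 1 (LPC minus vehicle) with its 95% interval for the tested chemokine ligands, receptors of the members and genes that handle chemokines or, for Ccrl2, another chemoattractant. Filled points have a limma adjusted p under 0.05; Ccl3 (0.87) and Ccl22 (0.69) lie highest and Ccr8 (-0.68) lowest, and the dashed line is the median of all tested genes (-0.04).

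Of 31 further mouse chemokine ligand genes 22 were listed, and 20 of these stayed under 1 FPKM in every library. The remaining 2 were tested and neither passed. Ccl27a, best known as a skin ligand, was listed at 6.30, 5.18 and 5.72 FPKM with LPC, against 8.69, 8.12 and 5.94 FPKM with vehicle (log2 change -0.34, limma adjusted p = 0.0894). Ccl25, the thymus and gut ligand of Ccr9, was listed at 0.92, 1.16 and 1.17 FPKM with LPC, against 1.68, 1.34 and 1.46 FPKM with vehicle (log2 change -0.26, limma adjusted p = 0.106).

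Among 7 receptor genes of the members, 3 were tested, of which 1 fell and 0 rose (7.91% and 5.82% of all tested genes). Ccr8, the receptor of Ccl1, was listed at 4.86, 4.96 and 5.30 FPKM with LPC, against 8.68, 8.65 and 8.78 FPKM with vehicle, with a wide gap between the groups (log2 change -0.68, SE 0.09, limma adjusted p = 0.000859). Ccr4, the receptor of Ccl17 and Ccl22, and Cxcr3, that of Cxcl10, had log2 changes of -0.15 and 0.17 that did not pass (limma adjusted p = 0.353 and 0.309). Ccr1, Ccr3, Ccr6 and Xcr1 stayed at or under 0.31 FPKM in every library.

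Also read were 9 genes that bind, trim or scavenge chemokines or, for Ccrl2, present another chemoattractant. Of these 8 were listed and 5 were tested, of which 2 fell and 0 rose (7.91% and 5.82% of all tested genes). Ccrl2, a receptor-like protein that presents the chemoattractant chemerin, was listed at 17.84, 20.78 and 17.35 FPKM with LPC, against 24.44, 24.37 and 24.74 FPKM with vehicle (log2 change -0.38, limma adjusted p = 0.0178). This call was lost without vehicle replicate 1, 2 or 3 or LPC replicate 1 (limma adjusted p = 0.0775, 0.0631, 0.0514 and 0.0646). Sdc1, a heparan sulfate proteoglycan gene, was listed at 1.52, 1.3 and 1.21 FPKM with LPC, against 2.00, 1.85 and 2.15 FPKM with vehicle (log2 change -0.36, limma adjusted p = 0.0321), a call lost without vehicle replicate 1, 2 or 3 or LPC replicate 3 (limma adjusted p = 0.105, 0.0642, 0.0912 and 0.0711). Srgn, the granule proteoglycan gene, stood at 1620 ± 298 FPKM with LPC and 1590 ± 140 FPKM with vehicle, and Dpp4, whose product trims the amino terminus of several chemokines, at 6.88 ± 0.799 FPKM with LPC and 7.39 ± 0.615 FPKM with vehicle (SD, n = 3 each), and neither passed.

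Of 14 transcription factor genes known for control of chemokine genes, all 14 were tested, 1 fell and 0 rose, with a median log2 change of -0.20. Of all tested genes, 7.91% fell and 5.82% rose, with a median log2 change of -0.04. Gata3, the Th2 factor gene, was listed at 3.44, 4.17 and 3.01 FPKM with LPC, against 6.70, 7.16 and 5.94 FPKM with vehicle (log2 change -0.75, limma adjusted p = 0.00171). The NF-kappaB genes Nfkb1 and Rel had log2 changes of -0.29 and -0.37 that did not pass (limma adjusted p = 0.0598 and 0.057). Rela and Relb, of the same family, had log2 changes of -0.09 and 0 (limma adjusted p = 0.534 and 0.98).

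The genes whose pattern over the 6 libraries was closest to that of Ccl3, among 7782 with a mean of 5 FPKM or more, were Cars2, Ncbp2 and Tmem238, with log2 changes of 0.76, 0.88 and 0.81. Closeness was the mean absolute difference of the log2 deviations from each gene's own mean, 0.065, 0.0652 and 0.0845 for these genes. For Ccl5, the tested member with the smallest change, the closest were Ak6, Mpp1 and Rpp14 (0.0192, 0.0254 and 0.0287), with log2 changes of 0.04, 0.04 and 0.06.

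**Figure D4:**
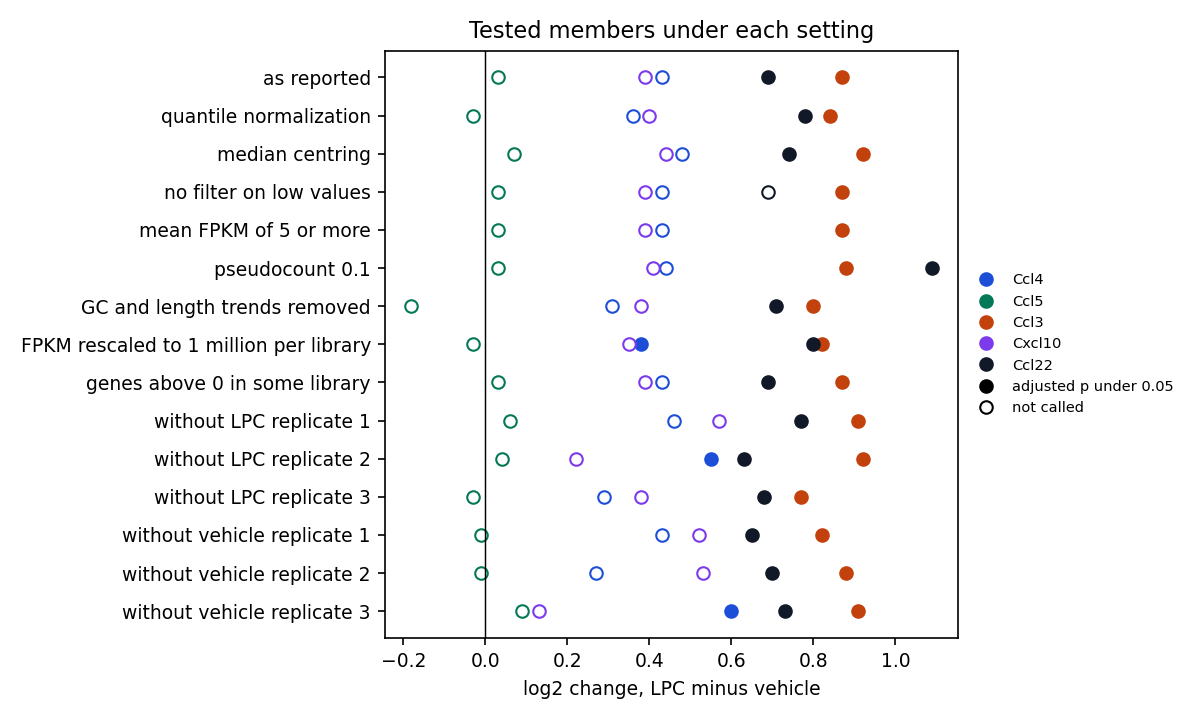
Log2 change (LPC minus vehicle) of the 5 tested chemokine genes under the reported setting and each alternative drawn. Filled points mark a limma adjusted p under 0.05, and the block for replicate number is not drawn. Ccl3 lies between 0.77 and 0.92 and is called throughout, Ccl22 is called except with no filter on low values and is absent where a mean of 5 FPKM is required, and Ccl5 lies on both sides of 0.

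The T cell identity of the libraries was checked with 6 T cell markers (Cd3d, Cd3e, Cd3g, Cd4, Cd28 and Lck), which summed to 950 to 1020 FPKM with LPC and 984 to 1020 FPKM with vehicle, and none of which passed the test. Cd4 stood at 177.07, 169.87 and 143.89 FPKM with LPC, against 185.33, 205.2 and 199.32 FPKM with vehicle (log2 change -0.27, limma adjusted p = 0.0875). Every LPC library was lower for Cd4, as for 20.7% of tested genes, while the groups overlapped for the other T cell markers. Cd8b1, a CD8 subunit gene, stood at 11.7 ± 1.03 FPKM with LPC and 13.8 ± 0.42 FPKM with vehicle (SD, n = 3 each), while Cd8a stayed at or under 0.33 FPKM. Natural killer cell markers summed to at most 0.36 FPKM with LPC and 0.19 FPKM with vehicle, B cell markers to at most 0.91 FPKM with LPC and 1.05 FPKM with vehicle, and granulocyte and mast cell markers to at most 0.16 FPKM with LPC and 0.29 FPKM with vehicle. Each library listed 10002 to 10139 genes at 1 FPKM or more. The first principal component (58.4% of variance) placed the LPC libraries at -10.84, -3.03 and -21.10 and the vehicle libraries at 10.76, 15.76 and 8.43, with LPC replicate 3 the farthest out.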

How the data were processed

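Gene expression was measured by RNA sequencing on a BGISEQ-500 in 3 LPC and 3 vehicle libraries, per the labels' protocols. The authors aligned reads to GRCm38 with Bowtie2 and deposited FPKM from RSEM, per the labels' protocols, rounded to 0.01, with 1 file per library; their versions and filters: not given in the sources used here. RSEM divides reads shared by similar genes by estimate, so Ccl3 and Ccl4 are less certain. FPKM is relative to each library's total.

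The 10 members and all lists were chosen with earlier results of these data known. Of the gene IDs, 99.3% matched RefSeq (GRCm38.p6), and 24 symbols that had become dates were restored. limma 3.58.1 (R 4.3.3, trend, group as the single term) was fitted to log2(FPKM + 1) of 10138 genes with 1 FPKM or more in at least 3 libraries, with Benjamini-Hochberg adjustment and a call at an adjusted p under 0.05; fold changes on this scale understate low genes. The fit was tested on simulated data. Named were all members, up to 4 called genes of each further list, and the 3 genes closest in pattern to the tested members with the highest and the lowest change; the others were chosen after their values were seen. Depth was estimated from values of 0.03 to 0.3 FPKM of genes with 1 listed transcript, which came nearest to whole reads at 18.50 to 19.25 M reads (mean distance 0.142 to 0.154 read, against 0.225 to 0.232 with lengths shuffled); lengths came from GENCODE M21. Quantile normalization, median centring, other filters, another pseudocount (0.1), a block for replicate number, removal of GC and length trends (splines with 4 degrees of freedom, 99.1% of genes) and leaving out each library were tried; rescaling to a sum of 1000000 and testing genes above 0 were added after seeing the data. No count test was used. The NF-kappaB and ISRE search letters were shortened to their first letters after a first search with longer forms had been seen; the longer forms matched fewer promoters. An item of the lists is not reported here.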

Additional observations from a re-analysis of the deposited data

How the results depend on the processing

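Ccl3 was called higher under all 15 alternatives run (log2 change 0.77 to 0.92, limma adjusted p at most 0.0424), and Ccl22 under 13 of the 14 in which it was tested (0.63 to 1.09). Apart from the fits of all listed genes and of genes above 0 in some library, these 14 reused the reported filter. The LPC libraries of Ccl22 alone sufficed for that filter. Ccl22 was lost with all listed genes (limma adjusted p = 0.0533). It was kept with genes above 0 in some library (limma adjusted p = 0.0284), a fit added after seeing the data. The count of members called higher, 2 as reported, was 1 with no filter on low values (all 18046 genes, where Ccl22 was lost), 1 with a mean FPKM of 5 or more (where Ccl22 is not tested) and 2 to 3 when each library was left out; no alternative called a member lower. The log2 change of Ccl5, 0.03 as reported, was -0.03 with quantile normalization, -0.18 with GC and length trends removed, -0.03 with libraries rescaled to a sum of 1000000, and -0.03 to 0.09 when each library was left out (below 0 without LPC replicate 3 or vehicle replicate 1 or 2, at -0.03, -0.01 and -0.01), and passed in none; the cause was not tested. Genes changed, 1392 as reported, numbered 191 with all listed genes tested, 464 with genes above 0 in some library, 2319 with GC and length trends removed, and 513 to 2026 when each library was left out. The Ccl3 to Ccl4 log2 ratio differed by 0.30 to 0.61 when each library was left out. Gata3 was lost with no filter (limma adjusted p = 0.0671), Ccrl2 under 6 of 15 alternatives and Sdc1 under 8 of 14, while Ccr8 was kept in all 15.

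The labels do not say whether a replicate number marks a shared mouse, culture or day. Deviations of same-numbered libraries correlated at 0.02, 0.56 and 0.41 for replicates 1 to 3, and those of differently numbered ones at -0.50 to 0.06; each library correlated best with its own number except vehicle replicate 1, a hint from the data and not from the design, so the numbers were not taken as pairs. With the replicate block 2841 genes changed and 4 members were called higher, Ccl3, Ccl22, Ccl4 (limma adjusted p = 0.000798) and Cxcl10 (0.0482).

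Depth limits Ccl1, Ccl17, Ccl20 and Xcl1, which rest on about 0 to 6 reads per library.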
